A study of Mus musculus with 6 samples.

Results

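The genes described here are the colony stimulating factors and their receptors in the mouse retina: the ligand genes Csf1 and Il34, and the receptor genes Csf1r, Csf2ra, Csf2rb, Csf2rb2 and Csf3r. They were chosen by gene symbol from a count table of 23420 genes, and all 7 had a row. RNA-seq of whole retinas compared 3 groups of 2 libraries each: control retinas without any treatment, retinas taken 4 days after white light of 10000 lux for 1 h, and retinas of mice given the same light and minocycline, a tetracycline antibiotic, at 45 mg/kg by daily intraperitoneal injection for 4 days. The sample labels give the strain as CD1, whereas the methods of the study describe adult albino BALB/cJ mice of both sexes, another light intensity and another injection scheme. The methods call the 2 libraries of a group biological replicates. Neither source says whether a library held 1 retina or several, and the labels name no vehicle for the other groups. The minocycline columns carried the same header, so they are called A and B and have no replicate number.

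CSF1R is the receptor tyrosine kinase on which microglia, the resident macrophages of the retina, depend for survival and proliferation. It has separate ligands, CSF1 and IL-34, of which IL-34 is made mainly by neurons in the central nervous system. GM-CSF binds a receptor of an alpha chain (Csf2ra) and the common beta chain (Csf2rb), which IL-3 and IL-5 receptors also use. Mice carry a neighbouring copy, Csf2rb2, whose product serves the IL-3 receptor only, and Csf3r encodes the receptor for G-CSF, known best from neutrophils and their precursors.

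The libraries held between 15205930 and 22856922 counts, so that 3 counts corresponded to between 0.131 and 0.213 CPM (counts scaled to library size, here by the trimmed mean of M values). Only control library 1 had the Xist level of a female, with 77778 counts against 25 to 188 in the other libraries. The 12 microglia markers summed to 47.7 and 42.3 CPM in controls, 204 and 599 CPM after light, and 72.7 and 42.1 CPM with minocycline. Rod markers ran the other way after light, from between 72877 and 92461 CPM in controls to between 38667 and 54616 CPM. The 6 corneal epithelium markers summed to 178 and 247 CPM in the minocycline libraries against at most 15.3 CPM in the others, and the 5 stroma markers to 29.7 and 121 CPM against at most 15.22 CPM. In whole-retina RNA, more cells of a type and more RNA per cell cannot be told apart.

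At 4 days after light, 3 genes of the family rose: Csf1 by 3.18-fold, Csf2rb2 by 8.64-fold and Csf3r by 10.6-fold. Csf1r and Csf2rb had fold changes of 9.67 and 10.3 but did not pass the test, and Csf2ra and Il34 had fold changes of 1.37 and 1.42. A gene passed with a Benjamini-Hochberg adjusted p under 0.05 among the 14349 genes tested by quasi-likelihood in edgeR. The 3 of 7 passing genes stand beside 7.52% of all tested genes that passed as higher. For all 7 genes both light libraries lay above both control libraries, as they did for 30.6% of tested genes. The median log2 fold change was 3.11 over the 7 genes and 0.0025 over all genes. With a log2 fold change of at least 2 required as well, Csf2rb2 and Csf3r remained, where 2.89% of all genes were called higher. These calls depended on single libraries: 0 of 7 passed without control 1 or without control 2, 6 passed without light 1, and 4 without light 2, while the 7 log2 fold changes stayed positive in each case. Over all genes the number passing in either direction went from 1624 to 4 without control 1, 57 without control 2, 2145 without light 1 and 497 without light 2. For the genes that passed, the log2 fold change ran from 1.27 (without light 2) to 2.15 (without control 1) for Csf1, from 2.38 (without light 2) to 3.93 (without control 2) for Csf2rb2, and from 2.04 (without light 2) to 4.09 (without light 1) for Csf3r. It ran from 2.32 (without light 2) to 3.84 (without light 1) for Csf1r, and from 2.34 (without light 2) to 5.25 (without control 2, which leaves 3 counts as the control) for Csf2rb.

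With minocycline, 6 of the 7 genes were lower in both libraries than in both light libraries, and Il34 overlapped. This held for 28.8% of the 14750 genes tested. None of the 7 passed the pairwise edgeR fit (0 of 7), in which 0.0407% of all genes, 6 in number, passed as lower. An unadjusted p under 0.05 was found for 6 of the 7 and for 3117 of all 14750 genes. DESeq2 passed 4 of the 7, Csf1r, Csf2rb, Csf2rb2 and Csf3r, and 1197 of all genes in either direction. Csf2rb and Csf2rb2 also passed in edgeR without the low-count filter, where 732 of 18453 genes passed, and in the joint fit of all 6 libraries, where 488 of 14713 did. Without light 1, Csf2rb, Csf2rb2 and Csf3r passed beside 772 of all 15207 genes, whereas leaving out light 2 or a minocycline library passed none. With single libraries left out the log2 fold change ran from -3.58 (without minocycline library A) to -1.92 (without light 2) for Csf1r, from -4.19 (without minocycline library A) to -1.81 (without light 2) for Csf3r, from -4.58 (without light 1) to -2.99 (without light 2) for Csf2rb, and from -4.62 (without minocycline library B) to -3.38 (without light 2) for Csf2rb2. Between minocycline and control retinas, 0 of the 6 tested genes passed in edgeR or in DESeq2, and 0 had an unadjusted p under 0.05, against 994 of all genes. In that comparison 0.162% of 14181 genes passed as higher and 0% as lower. Csf2rb2 was too low for this comparison and was not tested.

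**Figure D1:**
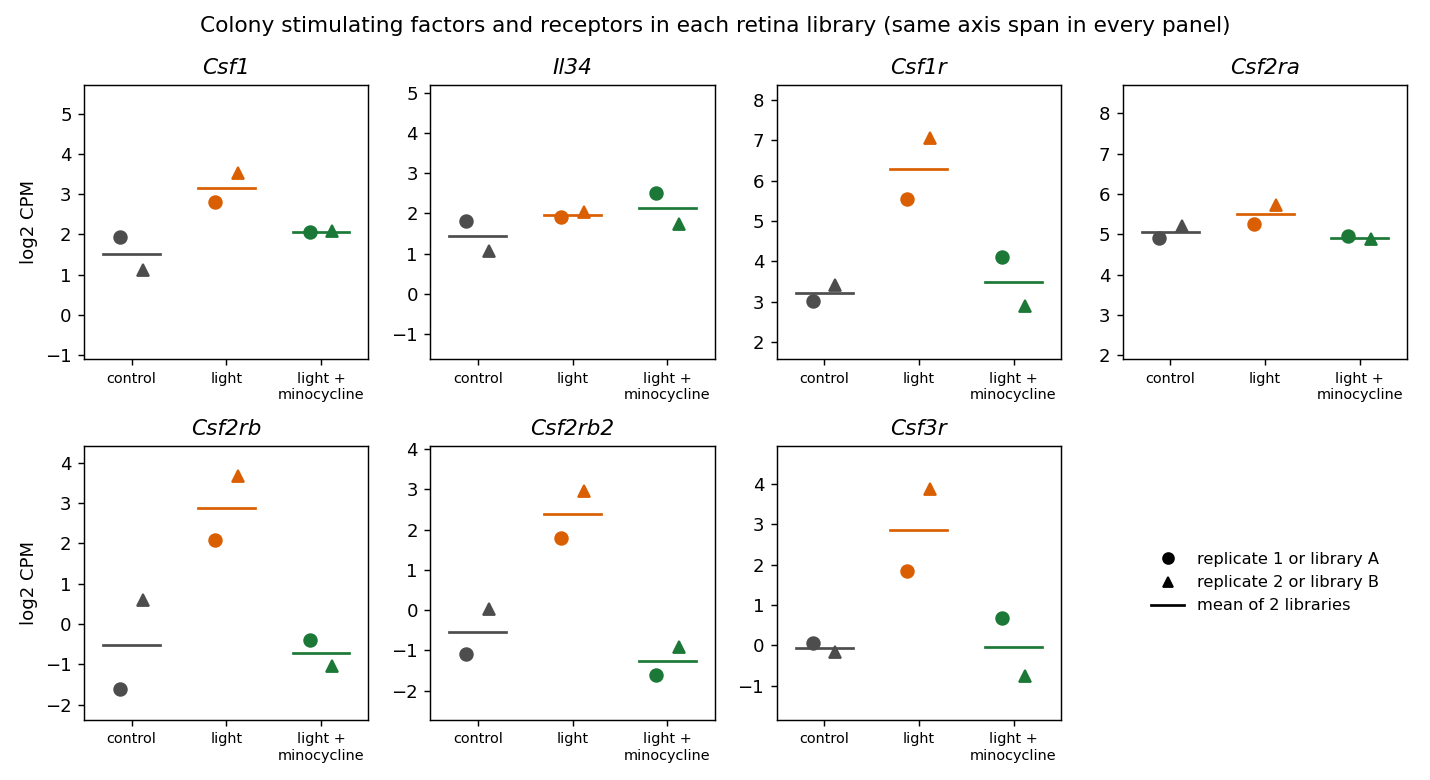
Log2 CPM (prior count 2) of the 7 genes, with 1 point per library, circles for replicate 1 or library A, triangles for replicate 2 or library B, and a bar at the mean of the 2 libraries of control, light and light plus minocycline retinas. Every panel spans the same number of log2 units; both light points lie above both control points in all 7 panels.

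**Figure D2:**
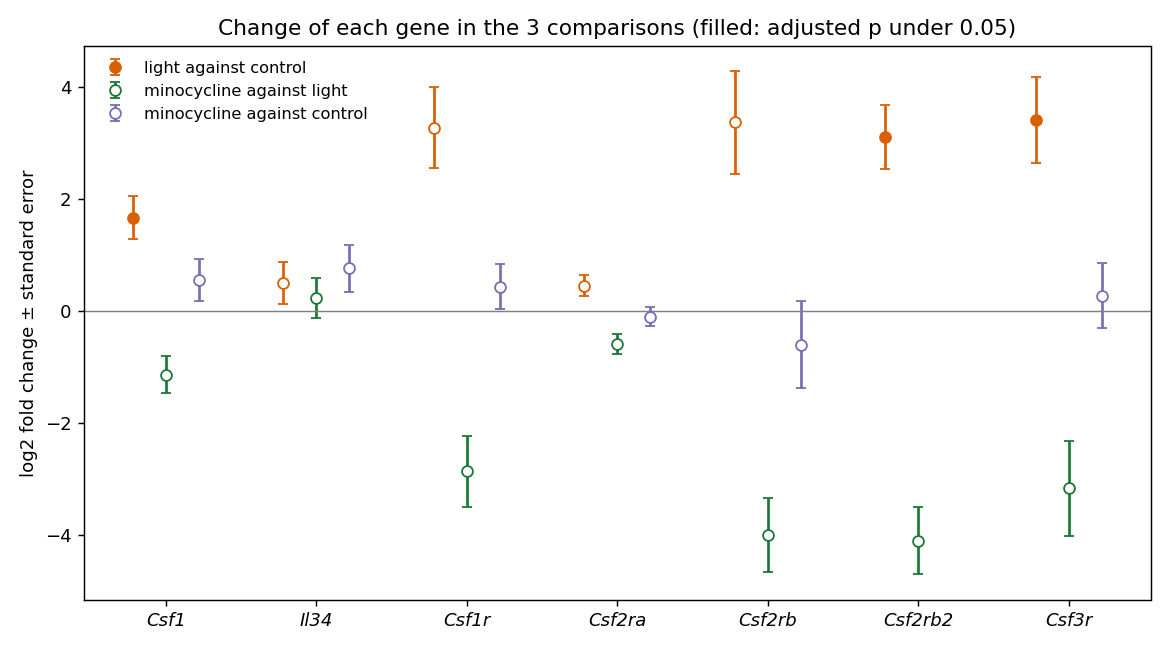
Log2 fold change with its standard error for each gene (x axis) in the 3 comparisons, 2 libraries per group. Filled points, for Csf1, Csf2rb2 and Csf3r after light, passed an adjusted p under 0.05 in edgeR; Csf2rb2 has no point for minocycline against control because it was not tested there.

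Csf1 encodes the macrophage colony stimulating factor and lies on chromosome 3, minus strand, at 107741048-107760469 (GRCm38). It measured 3.70 and 2.04 CPM in controls (2.87 ± 1.17, SD, n = 2), 6.90 and 11.3 CPM after light (9.10 ± 3.12), and 4.05 and 4.13 CPM with minocycline (4.09 ± 0.0601). The light libraries stood above the other 4, and both minocycline libraries lay just above the controls, making Csf1 the only gene of the 7 without overlap between minocycline and control. The log2 fold change after light was 1.67 (SE 0.38, adjusted p = 0.0235), and that of minocycline against light was -1.14 (SE 0.33, adjusted p = 0.121). Without light 2, Csf1 no longer passed after light (log2 1.27, adjusted p = 0.081).

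Il34 lies on chromosome 8, minus strand, at 110741829-110805924. Its level was 3.41 and 1.97 CPM in controls, 3.62 and 3.99 CPM after light, and 5.62 and 3.23 CPM with minocycline. These ranges nearly touched or overlapped, and no comparison passed the test: the log2 fold change was 0.50 after light (SE 0.38, adjusted p = 0.415), 0.23 for minocycline against light (SE 0.36, adjusted p = 0.765) and 0.77 for minocycline against control (SE 0.42, adjusted p = 0.742). The sign of the minocycline against light value turned to -0.20 without minocycline library A, which held the highest count of the 6 libraries. Exons of the antisense genes Gm15894 and Gm15895, which have no row in the table, overlap Il34, and the use of strand in counting was not stated.

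The balance between both CSF1R ligands was read per kilobase of exon. The Csf1 level was 0.402 and 0.384 of the Il34 level in controls (0.393 ± 0.0125), 0.706 and 1.05 of it after light (0.879 ± 0.244), and 0.267 and 0.474 of it with minocycline (0.371 ± 0.146). Both light libraries were above the other 4, and they differed from each other by more than light 1 differed from the controls. No test was made of this ratio.

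The other ligands of these receptors were at or near 0. Csf2 (GM-CSF) had at most 1 count in any library, Csf3 (G-CSF) at most 2, and Il3 had 0 in all 6. Il5 had at most 3 counts (0.143 CPM in light 2), which is the limit of detection used here. The IL-3 receptor alpha chain, Il3ra, was at 1.92 and 2.68 CPM in controls, 3.10 and 6.03 CPM after light, and 1.87 and 1.48 CPM with minocycline. Its log2 fold change after light was 0.998 (adjusted p = 0.140), and it passed only without light 1 among the fits that left out a library.

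Csf1r (chromosome 18, plus strand, 61100598-61132149) measured 8.04 and 10.6 CPM in controls (9.30 ± 1.79), 46.3 and 133 CPM after light (89.7 ± 61.3), and 17.0 and 7.31 CPM with minocycline (12.2 ± 6.87). The light libraries differed widely from each other but were both above the other 4, and the minocycline libraries lay on either side of the control range. The log2 fold change was 3.27 after light (SE 0.72, adjusted p = 0.103), -2.86 for minocycline against light (SE 0.64, adjusted p = 0.101) and 0.44 for minocycline against control (SE 0.40, adjusted p = 0.769). After light Csf1r passed in DESeq2 (adjusted p = 0.000208), without robust estimation (adjusted p = 0.00639), with total library size as the scale (adjusted p = 0.0345), and when light 1 or light 2 was left out. It did not pass without control 1 or control 2. Minocycline against control turned to -0.31 without minocycline library A. Exons of Hmgxb3 overlap Csf1r on the opposite strand. Hmgxb3 stayed between 47.5 and 65.0 CPM in the 6 libraries, with 60.8 and 60.9 CPM after light.

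The GM-CSF receptor alpha chain, Csf2ra (chromosome 19, minus strand, 61223957-61228429), was the highest of the 7 genes in every control and minocycline library and had small fold changes. It measured 30.1 and 36.5 CPM in controls, 38.2 and 52.7 CPM after light, and 30.8 and 29.5 CPM with minocycline. The light libraries were higher than the rest, with the lower of them close to control 2. The log2 fold change was 0.46 after light (SE 0.19, adjusted p = 0.142) and -0.58 for minocycline against light (SE 0.18, adjusted p = 0.137). It passed after light only without light 1 (log2 0.67, adjusted p = 0.0496). Minocycline against control was -0.10 (SE 0.17, adjusted p = 0.860), and turned to 0.050 without control 2.

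The beta chains sit side by side on chromosome 15 in opposite orientation, Csf2rb on the plus strand at 78325752-78353847 and Csf2rb2 on the minus strand at 78282507-78305721. Their coding sequences of 2688 and 2634 bases were 95.2% identical outside gaps, with a longest identical run of 242 bases, which is why reads of 50 bases do not always tell them apart. Of all 50-base windows in the transcripts of Csf2rb, 12.3% also occurred in transcripts of other genes, and for Csf2rb2 18.86%. The pair of 60-base stretches that differed most is shown with the 13 differing bases in capitals, since reads from such stretches are what separates the genes. Both are in coding exons, 5′ to 3′ on the strand of the gene, from GRCm38, Csf2rb at chr15:78338893-78338952 and Csf2rb2 at chr15:78294379-78294438.
Csf2rb: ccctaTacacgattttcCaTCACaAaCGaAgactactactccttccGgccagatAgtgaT
Csf2rb2: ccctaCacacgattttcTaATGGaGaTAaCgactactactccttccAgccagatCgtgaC
The next stretch, the first 50 bases of the longest identical run, is the same in both genes (chr15:78348577-78348626 in Csf2rb and chr15:78284822-78284871 in Csf2rb2), and a read of it could come from either.
Both genes: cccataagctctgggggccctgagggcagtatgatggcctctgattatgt

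Csf2rb measured 0.213 and 1.41 CPM in controls (3 and 20 counts), 4.15 and 12.6 CPM after light, and 0.653 and 0.371 CPM with minocycline. Csf2rb2 measured 0.356 and 0.916 CPM in controls (5 and 13 counts), 3.33 and 7.70 CPM after light, and 0.218 and 0.424 CPM with minocycline (5 and 8 counts). For both beta chains the light libraries were far above the other 4, and control 1 held fewer counts than control 2. The log2 fold change after light was 3.37 for Csf2rb (SE 0.92, adjusted p = 0.0845) and 3.11 for Csf2rb2 (SE 0.57, adjusted p = 0.0154). Csf2rb passed in DESeq2 (adjusted p = 3.02e-05), without robust estimation (adjusted p = 0.0255), with all 6 libraries in one fit (adjusted p = 0.0483), and without light 1 or light 2. For minocycline against light it was -3.99 (SE 0.66, adjusted p = 0.0698) and -4.09 (SE 0.61, adjusted p = 0.0691), the lowest values among the 7 genes. Minocycline against control gave -0.60 for Csf2rb (SE 0.77, adjusted p = 0.815), which turned to 1.30 without control 2.

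Because reads can be split between the beta chains, their counts were also summed. The sum had a log2 fold change of 3.27 after light (adjusted p = 0.0699) and of -4.04 for minocycline against light (adjusted p = 0.0681), so that Csf2rb2 passed after light as a separate gene and the sum did not. Csf2rb made up 55.5% of the summed counts in light 1 (71 of 128, Wilson 95% interval 46.8 to 63.8) and 62.1% in light 2 (266 of 428, 57.5 to 66.6). In the other libraries the sum was 8 to 33 counts, the share ranged from 37.5% to 75.0%, and the interval of each included the share in both light libraries. Intervals cover counting error only.

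On the per-length scale, the ratio of the alpha chain to both beta chains together was 100 and 32.9 in controls, 10.5 and 5.47 after light, and 79.0 and 73.1 with minocycline. The light libraries were thus lowest in this ratio, and the minocycline libraries lay between the control libraries.

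The stretch before the start of Csf2rb2, the gene with the lowest adjusted p after light, is printed because the factor gene Spi1 is described further on. It covers the 250 bases before the RefSeq start (GRCm38.p6, chr15:78305722-78305971, minus strand, 5′ to 3′), with its match to GAGGAA, the core that PU.1 (the product of Spi1) binds, in capitals and read here on the opposite strand.
Csf2rb2 promoter: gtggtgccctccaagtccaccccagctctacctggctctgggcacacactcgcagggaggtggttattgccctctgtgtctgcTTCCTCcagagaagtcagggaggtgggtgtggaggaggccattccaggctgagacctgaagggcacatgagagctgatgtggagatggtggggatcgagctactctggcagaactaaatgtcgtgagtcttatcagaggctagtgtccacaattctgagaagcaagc
A RefSeq promoter of 4 of the 7 genes was in the table used. With both strands searched, this window held 1 match in Csf2rb2, 1 in Csf3r, 2 in Csf2ra and 0 in Csf1. Of all 27025 genes with a promoter, 23.1% had at least 1 match and 3.57% at least 2. Il34, Csf1r and Csf2rb were not in that table.

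Csf3r (chromosome 4, plus strand, 126024550-126044440) measured 0.924 and 0.775 CPM in controls (0.850 ± 0.106), 3.51 and 14.5 CPM after light (9.02 ± 7.80), and 1.48 and 0.477 CPM with minocycline (0.979 ± 0.709). Light 2 had the highest level, light 1 the next, and the minocycline libraries lay on either side of the controls. The log2 fold change after light was 3.41 (SE 0.77, adjusted p = 0.0455), which did not pass without the filter on low counts (adjusted p = 0.0918). Minocycline against light gave -3.16 (SE 0.84, adjusted p = 0.126). Minocycline against control gave 0.27 (SE 0.58, adjusted p = 0.887) and turned to -0.79 without minocycline library A. Of the 50-base windows of Csf3r transcripts, 10.47% also occurred in transcripts of other genes.

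Since Csf3r is best known from neutrophils, its levels stand beside those of 12 neutrophil markers, of which 11 had a row. Their sum was 2.56 and 1.06 CPM in controls, 3.62 and 5.84 CPM after light, and 5.88 and 1.33 CPM with minocycline. Elane and Camp, granule genes of neutrophil precursors, were at 0 in all 6 libraries, and Mpo was at most at 0.0704 CPM. Mmp8 was at 0 in the controls and minocycline libraries and at 0.468 and 1.85 CPM after light, and S100a8 was at 0.409 and 1.14 CPM after light against at most 0.174 CPM elsewhere. S100a9 and Ltf, at 0.435 CPM each, and Mmp9 were instead highest in minocycline library A, so that the markers did not move together. S100a9 was also higher after light, at 0.351 and 0.190 CPM, than in controls, at 0.142 and 0 CPM. Retnlg, Cxcr2 and Ngp did not reach 3 counts in any library. Mmp9 made up most of the sum in the control and minocycline libraries and was the only marker high enough for the test (log2 0.53, adjusted p = 0.485). The 6 monocyte markers summed to at most 1.75 CPM in any library. Ccr2 was at 0.584 and 0.570 CPM after light and at 0 in both controls. The part of such cells in the change of Csf3r was not tested.

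**Figure D3:**
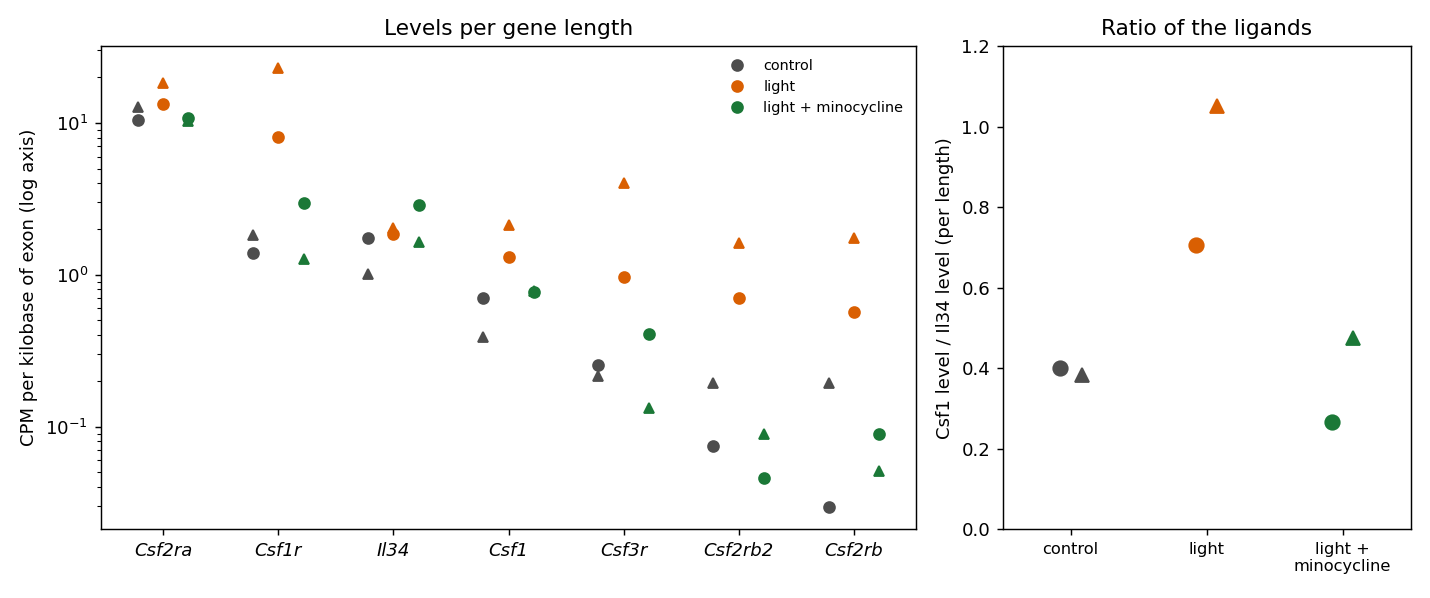
Left, the level of each gene in CPM per kilobase of exon (log axis) in each library, with colours for the 3 groups, circles for replicate 1 or library A and triangles for replicate 2 or library B. Right, the Csf1 level divided by the Il34 level in each library; the light libraries, at 0.706 and 1.05, are above the other 4.

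Levels between genes were compared per kilobase of exon. In controls the order was Csf2ra (11.6 CPM per kb), Csf1r (1.61), Il34 (1.37), Csf1 (0.544), Csf3r (0.235), Csf2rb2 (0.134) and Csf2rb (0.111). The ranges of Csf1r and Il34 overlapped, as did those of both beta chains, and the other neighbours in that order were apart. After light Csf2ra (15.8 CPM per kb) and Csf1r (15.5) led with overlapping ranges, with Csf3r (2.50) next by its mean. Csf3r was at 4.03 in light 2 but at 0.972 in light 1, below Il34 (1.85) and Csf1 (1.31) there, so its range overlapped that of Il34. Il34 (1.94), Csf1 (1.72), Csf2rb2 (1.16) and Csf2rb (1.15) followed, each overlapping the next. With minocycline the order was near that of controls, with Csf2ra (10.5 CPM per kb), Il34 (2.26) and Csf1r (2.11) in front and the ranges of the last 2 overlapping. The receptor Csf1r stood at 0.570 and 1.31 times the summed level of Csf1 and Il34 in controls, at 2.54 and 5.51 times after light, and at 0.811 and 0.521 times with minocycline.

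The receptors were also set against the level of microglia markers, as the log2 CPM of the receptor minus the mean log2 CPM of the 12 markers. That mean itself was 0.85 and 0.63 in controls, 2.67 and 3.97 after light, and 1.45 and 0.67 with minocycline. Relative to it, Csf1r was at 2.17 and 2.79 in controls, 2.87 and 3.09 after light, and 2.65 and 2.23 with minocycline. These differences span less than 1 log2 unit in all 6 libraries, whereas Csf1r itself ran from 2.89 to 7.06 on the log2 CPM scale. Csf3r was at -0.80 in both controls, -0.82 and -0.10 after light, and -0.78 and -1.43 with minocycline.

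For Csf2ra the difference was 4.06 and 4.57 in controls, 2.59 and 1.75 after light, and 3.50 and 4.22 with minocycline. It was lower against the markers in both light libraries than in the other 4, the mean difference of light from control being -2.14. The beta chains lay below the marker mean throughout. Csf2rb was at -2.48 and -0.02 in controls, -0.58 and -0.30 after light, and -1.84 and -1.72 with minocycline. Csf2rb2 was at -1.95 and -0.59, -0.89 and -1.004, and -3.06 and -1.57 in the same order. Minocycline library A had the lowest value for Csf2rb2, which rests on 5 counts. No test was made of these differences.

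**Figure D4:**
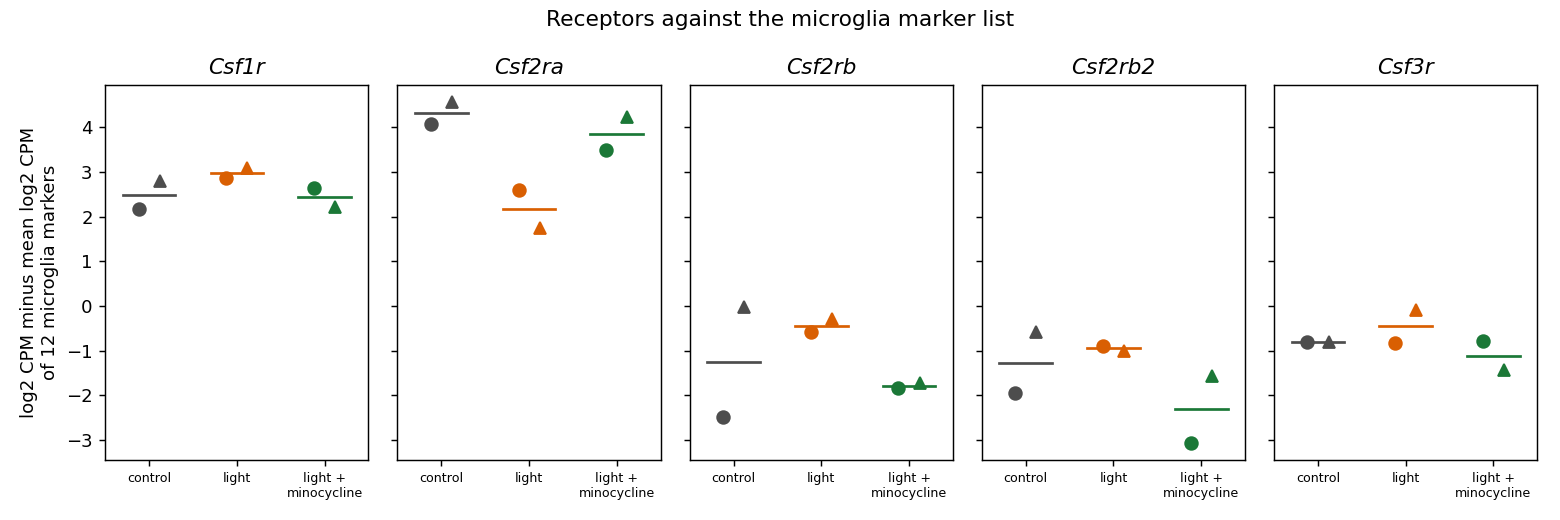
Log2 CPM of each receptor minus the mean log2 CPM of 12 microglia markers in each library, with a bar at the mean of 2 libraries per group; circles are replicate 1 or library A, triangles replicate 2 or library B. Csf1r stays between 2.17 and 3.09 in the 6 libraries, while Csf2ra is lowest in the 2 light libraries.

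Many genes known to act with or downstream of CSF1R were higher after light. Of 22 such genes, 12 rose and 0 fell, where 7.52% of all genes passed as higher. Both light libraries were above both controls for 17 of the 22, as they were for 30.6% of all genes, and the median log2 fold change was 1.74 against 0.0025 over all genes. They included the kinases Syk (log2 4.68, adjusted p = 0.0141) and Lyn (3.71, 0.0185), the exchange factor Vav1 (4.33, 0.0247), the phospholipase Plcg2 (3.25, 0.0126) and the phosphatidylinositol 3-kinase subunits Pik3cg (3.28, 0.0132), Pik3r5 (2.13, 0.0211) and Pik3cd (1.39, 0.0423). The phosphatase Ptpn6 (2.09, 0.028) and the adaptor Dok1 (2.99, 0.016), both restraining receptor signals, also rose. Tyrobp (DAP12), the adaptor that couples CSF1R to Syk, went from 3.27 and 3.80 CPM in controls to 42.8 and 132 CPM after light but did not pass (log2 4.63, adjusted p = 0.0756). Src rose by 0.62 (adjusted p = 0.0424), while Grb2 (0.37, adjusted p = 0.339), Sos1 (-0.07, adjusted p = 0.790) and the ubiquitin ligase Cbl (-0.22, adjusted p = 0.355), which most cells express, did not pass. The count was 0 without control 1 or control 2, 16 without light 1 and 8 without light 2, where 4, 57, 2145 and 497 of all genes passed in either direction. With minocycline 16 of the 22 were lower in both libraries than after light alone, as were 28.8% of all genes, and the median was -1.74 against 0.0062 over all genes. None passed in the pairwise edgeR fit, and 13 had an unadjusted p under 0.05, as had 3117 of all 14750 genes. As lower, 9 passed in edgeR without the low-count filter, 9 in the joint fit of all 6 libraries, 11 without light 1, and 10 in DESeq2. Over all genes 732, 488, 772 and 1197 passed in these fits in either direction.

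Of 6 factor genes known to drive Csf1r transcription, 4 rose after light, where 7.52% of all genes passed as higher. They were Cebpa (log2 4.28, adjusted p = 0.00962), Spi1 (3.73, 0.0173), Irf8 (3.39, 0.0197) and Runx1 (2.78, 0.0212). Spi1, the gene of PU.1, was at 0.427 and 0.423 CPM in controls, 2.57 and 8.79 CPM after light, and 0.610 and 0.583 CPM with minocycline. Cebpb (-0.13, adjusted p = 0.923) and Ets2 (0.37, adjusted p = 0.282) did not pass. The count of 4 became 0 without control 1 or control 2, where 4 and 57 of all genes passed in either direction, and 3 without light 2, where 497 did. Between minocycline and light none of the 6 passed in the pairwise edgeR fit, and 4 had an unadjusted p under 0.05, as had 3117 of all 14750 genes. As lower, 4 passed in DESeq2, and 4 in edgeR without the low-count filter, in the joint fit and without light 1 each, where 1197, 732, 488 and 772 of all genes passed in either direction.

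A list of 14 genes held the kinases, transcription factors and feedback genes that carry the signal of the beta chain and G-CSF receptors. After light 0 passed in edgeR or DESeq2, 2 had an unadjusted p under 0.05, as had 4144 of all 14349 genes, and the median log2 fold change was 0.25, where 7.52% of all genes passed as higher in edgeR. Jak2, the kinase bound to the beta chain, measured 68.3 and 70.2 CPM in controls, 64.6 and 64.1 CPM after light, and 69.5 and 76.2 CPM with minocycline. Stat5a was at 1.78 and 2.61 CPM, 4.15 and 5.23 CPM, and 2.53 and 1.48 CPM in the same order (log2 1.10 after light, adjusted p = 0.0786). The feedback gene Cish, a STAT5 target, stayed between 7.71 and 9.30 CPM in all 6 libraries. Stat3 was 76.2 and 163 CPM in the controls, 181 and 193 CPM after light (log2 0.65, adjusted p = 0.329), and 116 and 110 CPM with minocycline. Its controls differed more than control 2 and the light libraries did, and both minocycline libraries were below both light libraries (log2 -0.71, SE 0.13, adjusted p = 0.0698). Between minocycline and light 0 of the 14 passed in the pairwise edgeR fit, and 3 had an unadjusted p under 0.05, as had 3117 of all 14750 genes. Stat3 passed as lower in DESeq2 and in edgeR without the low-count filter. After light, 3 genes of the list passed as higher with total library size as the scale, as did 1930 of all 14349 genes, and 1 passed without control 2 and without light 1 each, beside 57 and 2145 of all genes in either direction.

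Among the other known partners of IL-34 and the proteases that shed CSF1 and CSF1R, no gene passed after light in edgeR or DESeq2, and 1 of 4 had an unadjusted p under 0.05, as had 4144 of all 14349 genes. With total library size as the scale 1 gene, Ptprz1, passed as higher, as did 1930 of all genes. Ptprz1, another receptor for IL-34, was at 45.1 and 47.1 CPM in controls, 52.9 and 65.2 CPM after light, and 42.8 and 39.4 CPM with minocycline (log2 0.36 after light, adjusted p = 0.154). The shedding enzymes Adam10 and Adam17 had log2 fold changes of -0.07 and 0.06. Sdc1 (syndecan-1), a proteoglycan that binds IL-34 and is abundant in epithelia, was at 0.640 and 0.423 CPM in controls, 0.351 and 0.808 CPM after light, and 5.83 and 10.0 CPM with minocycline. It was higher in minocycline than in control retinas (log2 3.92, adjusted p = 0.0366), a call lost without control 1, without control 2 and in the joint fit of all 6 libraries. The corneal epithelium markers were high in the same libraries, and their part in this change and in the levels of Csf1 and Il34 was not tested.

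**Figure D5:**
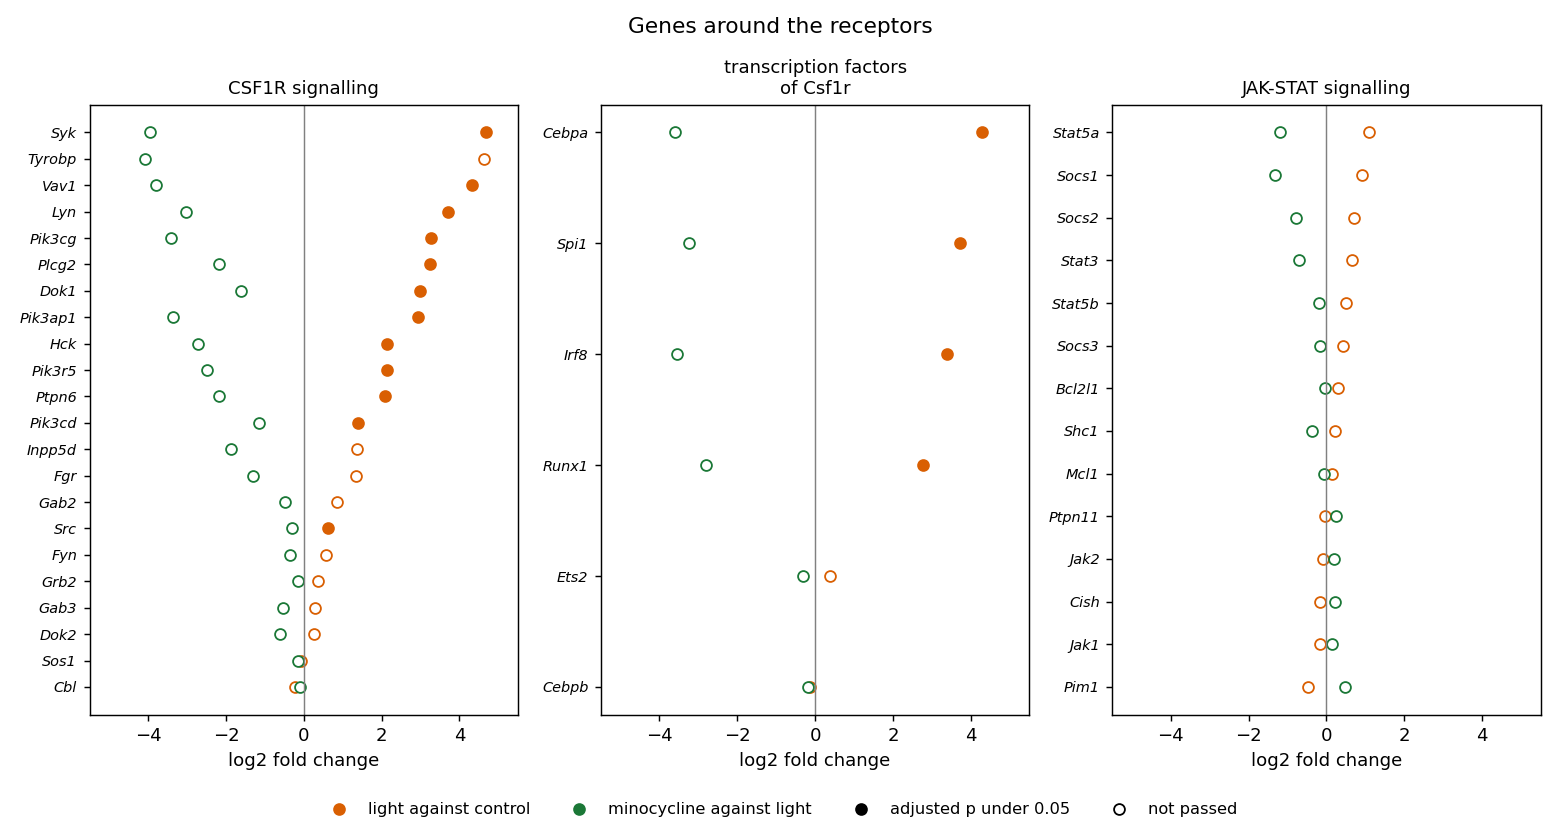
Log2 fold changes of single genes for light against control (orange) and minocycline against light (green) in 3 lists, sorted by the first; filled points passed an adjusted p under 0.05 in edgeR. In the left and middle lists 12 of 22 and 4 of 6 genes rose after light, and in the right list 0 of 14 passed in either comparison.

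The genes most alike to single members over the 6 libraries were found by the root mean square difference of centred log2 CPM. The search covered the 13977 genes tested in all 3 comparisons. For Csf1r they included Hmha1 (0.134 log2 units), Cd33 (0.220), Unc93b1 (0.227) and Sla (0.228). For Csf1 they were Dap (0.0943), Mr1 (0.117), Serpinb9 (0.118), Zfp697 (0.131) and Nek6 (0.132). The gene nearest to Csf2rb was Hk3 (0.405), followed by Apobec1 (0.440), Cd33 (0.441), Nlrc5 (0.467) and Vav1 (0.484), and the gene nearest to Csf2rb2 was Nlrc5 (0.211), followed by Fam46c (0.391), Irf8 (0.453), Parvg (0.460) and Irf5 (0.480). Csf2rb was not among the 5 genes nearest to Csf2rb2. Csf2rb2 was not tested between minocycline and control, so it was not searched as a neighbour of Csf2rb. Both have low counts in the control and minocycline libraries. Likeness over 6 libraries of 3 groups is a description and has no test.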

How the data were processed

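Retinal mRNA of 6 mouse libraries was sequenced as single reads from a stranded kit. Per the methods and the labels, the authors aligned reads to mm10 with STAR and assigned them to genes in the RNA Express workflow. They deposited counts per gene, which are whole numbers without scaling, although the methods speak of normalized DESeq2 counts. Versions, annotation and strand setting are not given in the sources used here. The genes and lists were chosen with earlier results of these data known. Each pair of groups had its own edgeR model (version 4.0.16, under R 4.3.3), with the filterByExpr filter, TMM scaling and a robust quasi-likelihood F test. Benjamini-Hochberg adjustment ran across tested genes, and the procedure was checked on simulated data. The p-values rest on the spread between 2 libraries per group, with its estimate moderated across all tested genes. DESeq2 1.42.0, other scalings and filters, and leaving out each library were alternatives. CPM were divided by the exon union of GENCODE M21 (GRCm38) for levels per length. All 7 genes, the listed pathway genes and the 5 nearest profiles of 4 genes were named, except 1 that is not reported here. The same-numbered control and light libraries did not deviate together (correlation -0.011 over 14713 genes). That check rests on 1 difference per group and cannot settle whether the libraries were paired. Of 23420 genes, 4791 had no counts, and 0 value columns were unused.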

Additional observations from a re-analysis of the deposited data

How the results depend on the processing

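After light, 1547, 2063 and 1915 of all 14349 genes passed in either direction without robust estimation, with total library size and in DESeq2. In each of these fits 5 of the 7 genes passed (Csf1, Csf1r, Csf2rb, Csf2rb2 and Csf3r). With at least 10 counts in every library 1420 of 13404 genes passed, and of the 5 members tested there 1 did (Csf1). At an adjusted p under 0.01, 0 of the 7 passed. Leaving out single libraries gave 0 to 6. With the replicate block 5 passed and 2525 genes in all instead of 1624. The labels and methods do not say whether the numbers pair the libraries. No paired analysis was possible because of the shared header wherever minocycline libraries entered. Between minocycline and light, 2 passed without a filter and with all 6 libraries in one fit (Csf2rb and Csf2rb2), 4 in DESeq2, and 0 to 3 with a library left out. Reversed values came only from leaving out a library, all in genes that had not passed: over these fits Il34 ran from -0.20 to 0.57 between minocycline and light, and between minocycline and control Csf1r ran from -0.31 to 0.88, Csf3r from -0.79 to 0.80, Csf2ra from -0.24 to 0.050 and Csf2rb from -1.39 to 1.30. The cause was not tested.

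Total library size shifted the median of all genes by 0.24 after light and turned the 1079 higher and 545 lower calls into 1930 and 133. Over all genes, light against control gave 88 at an adjusted p under 0.01, 419 with a log2 fold change of at least 2, and 4 to 2145 with a library left out. Minocycline against light gave 8, and 0 with total library size or at 0.01, 2 with DESeq2 size factors or upper quartile, 15 without robust estimation, 488 in one fit of 6, 732 without a filter, 1197 in DESeq2, and 14 to 772 with a library left out. Minocycline against control gave 23, and 0 in one fit or at 0.01, 3 with at least 10 counts in every library, 168 in DESeq2, 187 without a filter, and 3 to 480 with a library left out. With the longest transcript as gene length, the control ratio of Csf1 to Il34 was 0.456, a move beyond its SD, and the other 2 ratios moved within theirs. Of the per-length levels 7 moved by at least the SD of their group and 14 by less. Csf2rb has 7277 bases of exon but 4900 in its longest transcript, so its place beside Csf2rb2 depends on the length used. Counts of 3 to 20 in the control and minocycline libraries limit the beta chains.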
